A study of Mus musculus with 2 samples.

Results

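Cytosolic ribosomal protein genes encode the protein part of the ribosomes that work in the cytoplasm. Of the 31055 gene rows in the count tables, 85 were taken by their symbol: Rpsa, Rplp0, Rplp1, Rplp2, and every Rps or Rpl followed by a digit, without the Rps6k kinase genes, Rps27l and the 9 rows with "-ps" in the symbol. The symbol rule itself uses no measured value. Among them 77 are canonical ribosomal proteins: 43 of the body of the large subunit, 3 of its P stalk, which contacts the translation factors, and 31 of the small subunit. The symbol rule also took 7 paralogs, which are second copies related to a canonical gene (Rpl3l, Rpl7l1, Rpl10l, Rpl22l1, Rpl36al, Rpl39l and Rps27rt), and Rps19bp1, which encodes a protein that binds Rps19 and is not part of the ribosome.

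The genes were measured by single-cell RNA sequencing in 2 libraries: 1 of tumour-derived cells after FLASH proton irradiation, in which the dose is given at an ultra-high rate, and 1 after Standard proton irradiation. Both came from mice of the genotype Math1-Cre;SmoM2fl/fl. In these mice Cre under the Math1 promoter, which is active in cerebellar granule neuron progenitors, switches on an activated form of the Hedgehog signal transducer Smoothened, and medulloblastoma forms. For both groups the dose is 5 Gy in the labels of the samples but 10 Gy in the series' design text. The sources used here give neither the time after irradiation nor the age of the mice nor how many mice each library pools, and no unirradiated tumour was analysed here.

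Nearly every ribosomal protein is present in a single copy per ribosome, and a surplus of single proteins is degraded, so cells make these proteins in matched amounts. The mRNAs share a run of pyrimidines at their very start, the terminal oligopyrimidine (TOP) motif, through which the kinase complex mTORC1 and the RNA-binding protein Larp1 control their translation. The genes are strongly expressed in proliferating progenitors, and in the cerebellum granule neuron progenitors divide under Hedgehog signalling before they leave the cell cycle and differentiate.

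With 1 library in each group no test between FLASH and Standard was possible, and every difference between them has no replicate check. A UMI is a molecular tag that marks 1 captured mRNA molecule, and the share of ribosomal protein gene UMIs is given as a percentage of all UMIs of the same cells. Levels of single genes are given in CPM, which are UMIs per 1000000 UMIs of the class. Intervals are at 95% confidence and cover counting error only. The FLASH library held 14269 barcodes with 63178900 UMIs and the Standard library 12867 barcodes with 55532202 UMIs. Barcodes that passed the limits (500 or more genes, and mitochondrial UMIs of 10% or less) numbered 10366 in FLASH and 8461 in Standard, and 22 of these barcodes occurred in both libraries. Barcodes with the highest doublet scores, 860 in FLASH and 573 in Standard, were set aside before clustering. Clusters were made without ribosomal protein genes and named from marker lists, with the suffix -like because no label names a cell type. Tumour-lineage cells, 7327 in FLASH and 5962 in Standard, are the clusters named for granule neuron progenitor, S phase, G2 and M phase or differentiating granule neuron markers, together with 3 clusters that were neither of low depth nor marked as another cell type and whose state was not named.

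The starts of 8 genes are shown because the results below turn on these genes: 2 pairs of a gene and its paralog, 2 of the members that stood apart in single cell classes (Rpl38 and Rpl13a), and the members with the lowest and the highest ratio between the libraries. The bases are from RefSeq on GRCm38.p6, from 40 bases before the RefSeq start to 20 bases after it, on the strand of the gene, and capitals mark CTTTC, a pyrimidine run like that of TOP mRNAs. The RefSeq start lay 127 bases from the GENCODE start for Rpl22, 72 for Rpl22l1, 56 for Rpl38 and 53 for Rpl27. For Rpl13a it lay 16 bases away, for Rpl10 4, for Rps27 3 and for Rps27rt 0. A marked run, or its absence, therefore need not describe the first bases of the mRNA.
Rpl22 (chr4:152325686-152325745, plus strand): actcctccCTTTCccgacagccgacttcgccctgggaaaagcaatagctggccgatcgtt
Rpl22l1 (chr3:28805468-28805527, plus strand): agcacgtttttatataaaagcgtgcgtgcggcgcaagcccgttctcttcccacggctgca
Rps27 (chr3:90213629-90213688, minus strand): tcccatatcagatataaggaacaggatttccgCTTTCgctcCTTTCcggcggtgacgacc
Rps27rt (chr9:114982720-114982779, minus strand): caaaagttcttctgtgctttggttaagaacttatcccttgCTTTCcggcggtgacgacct
Rpl38 (chr11:114668540-114668599, plus strand): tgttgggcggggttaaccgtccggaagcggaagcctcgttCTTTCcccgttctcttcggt
Rpl13a (chr7:45128726-45128785, minus strand): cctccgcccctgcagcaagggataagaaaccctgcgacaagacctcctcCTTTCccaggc
Rpl27 (chr11:101442205-101442264, plus strand): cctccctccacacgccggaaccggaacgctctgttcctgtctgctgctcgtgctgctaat
Rpl10 (chrX:74270776-74270835, plus strand): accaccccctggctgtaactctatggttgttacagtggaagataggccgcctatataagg
Rps27 and Rps27rt have a stretch of 38 identical bases that begins within the first bases of their transcripts. Over the whole protein-coding transcript of Rps27rt (GENCODE M21, 374 bases), 91.6% of the 344 windows of 31 bases are found letter for letter in protein-coding transcripts of Rps27, and 83.1% of the 172 windows nearer the 3′ end are. The separate counts of the 2 genes are therefore uncertain. How reads that match several copies of a ribosomal protein gene were counted is not stated in the labels or file headers, and this limits the level of any single member.

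Promoter entries were found for 65 of the 85 genes, 57 of them canonical. Within 50 bases on either side of the RefSeq start, CTTTC on the sense strand was present in 54.4% of the 57 canonical promoters, against 11.7% of all 19395 promoters in the table and 9.46% of the 2642 other genes detected in tumour-lineage cells. The related run CTTCC was present in 42.1%, 20.1% and 24.1% of the same sets. The ETS-family motif ACTTCCG, searched on both strands and overlapping CTTCC, was present in 21.1%, 5.12% and 11.5%. AAGATGG, the YY1-type motif searched on both strands, was present in 8.77%, 2.94% and 5.34%, and TATAAA on the sense strand in 7.02%, 3.90% and 2.01%. A match describes these letters only, and RefSeq starts can lie away from the start used in the cell.

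Ribosomal protein genes held 17.04% of UMIs in FLASH (9943717 of 58357503) and 16.94% in Standard (8503667 of 50212938). In tumour-lineage cells the share was 17.17% in FLASH and 17.09% in Standard, a log2 ratio of 0.0072 (0.0057 to 0.0087). The sign of this ratio was negative with at most 5% mitochondrial UMIs (-0.020), with clusters weighted to the same mix (-0.0047) and without the clusters led by nuclear RNAs (-0.0098). No direction is therefore given for the total share between the libraries. Over single tumour-lineage cells the middle 80% of the shares ran from 7.89% to 23.3% in FLASH and from 6.41% to 23.5% in Standard, so the ranges overlapped almost wholly.

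Within the tumour-lineage clusters, which leave out the low-depth ones, the share differed between the named states. Non-cycling granule neuron progenitor-like cells had the highest share of the named states, 21.56% in FLASH and 21.77% in Standard. Non-cycling means here only that progenitor markers scored highest in these clusters, and absence of cycling was not tested. G2 and M phase-like cells had 17.13% in FLASH and 17.34% in Standard, and S phase-like cells had 17.01% in FLASH and 17.15% in Standard. Differentiating granule neuron-like cells had the lowest, 12.17% in FLASH and 12% in Standard. The order of these 4 states was the same in both libraries, although the S phase-like and G2 and M phase-like values lay close together. Single clusters of S phase-like and of G2 and M phase-like cells overlapped in share. Tumour-lineage clusters without a named state had 15.65% in FLASH and 14.86% in Standard.

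**Figure D1:**
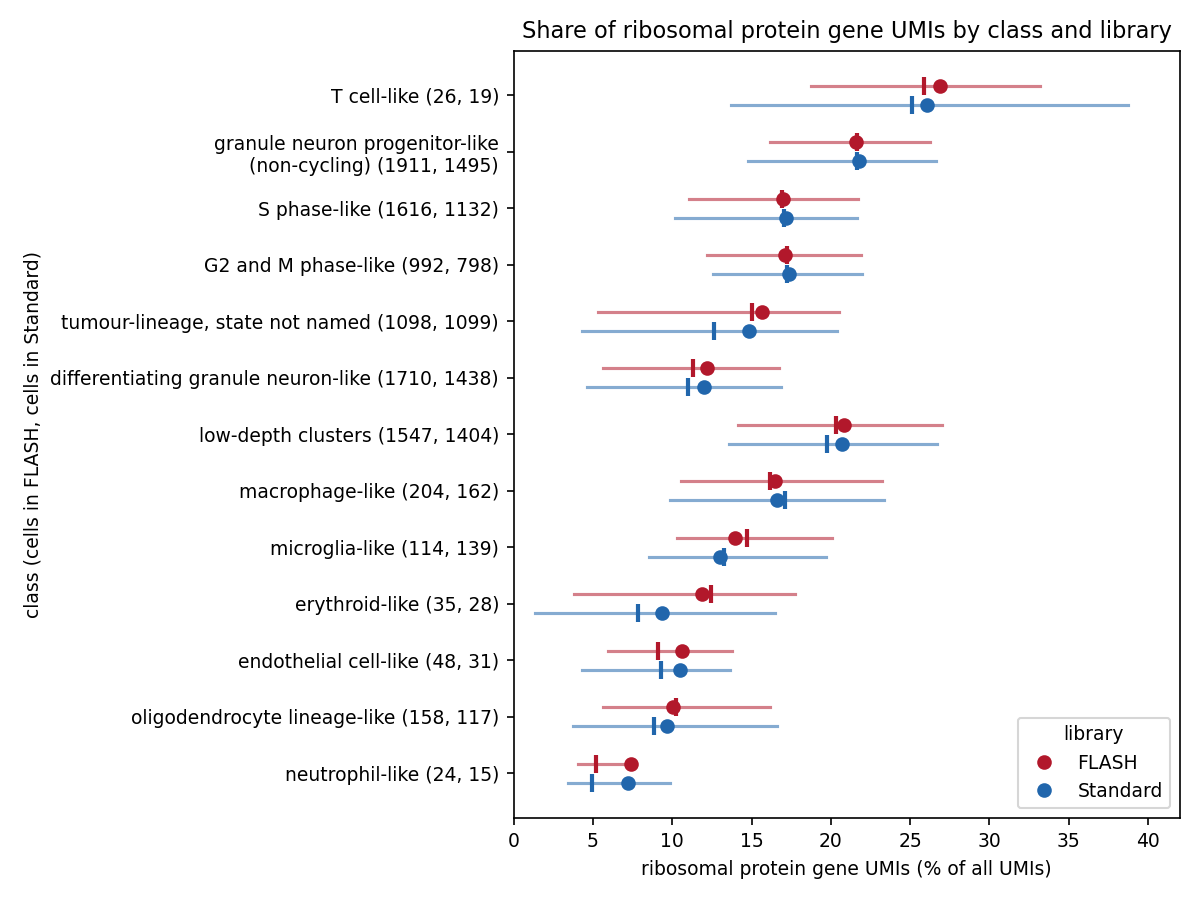
Share of ribosomal protein gene UMIs (x axis, % of all UMIs) in each cell class (y axis, with the number of cells in FLASH and in Standard). Filled circles are the share over the summed UMIs of the class, ticks are the median over cells, and lines run from the 10th to the 90th percentile over cells; T cell-like cells sit at 26.9% and 26.1%, differentiating granule neuron-like cells at 12.2% and 12%, and neutrophil-like cells at 7.42% and 7.20%.

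Single clusters spread further than the named states. The Hes1-led progenitor-like cluster had 22.3% in FLASH and 22.6% in Standard, and the progenitor-like cluster led by Dqx1, Srebf1 and Hey1 had 20.5% and 20.4%. Ung, which is on the S phase marker list, was also among the leading genes of the Dqx1-led cluster. Among the differentiating clusters, the early one led by Cntn2 and Klhl35 had 14.6% in FLASH and 14.6% in Standard. The Neurod1-led one had 11.0% and 10.9%, and the Meg3-led one had 6.49% and 5.68%. The order of these 5 clusters was the same in both libraries. The S phase-like cluster led by histone genes had 16.0% in FLASH and 16.3% in Standard. The S phase-like cluster led by Ung and Hells had 18.8% and 18.6%. The G2 and M phase-like cluster led by Ccnb2 had 19.1% in FLASH and 19.2% in Standard. It was named on 5 of 16 markers, the fewest the naming rule allowed. The others of that state, led by Ube2c and by Prc1, had 16.5% and 16.4% in FLASH and 16.6% and 16.7% in Standard.

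The share of nuclear long RNAs (Malat1, Neat1, Meg3 and similar transcripts) tended to move the opposite way across clusters, though not between every state. It was 1.69% in FLASH and 1.84% in Standard in non-cycling progenitor-like cells, against 2.67% and 2.92% in differentiating cells. S phase-like cells had 1.59% in FLASH and 1.65% in Standard, and G2 and M phase-like cells had 1.48% in each. Both states thus lay below non-cycling progenitor-like cells in nuclear RNA share and in ribosomal protein share. Over the 13 tumour-lineage clusters Spearman's rho between the ribosomal protein share and the nuclear RNA share was -0.71 in FLASH and -0.72 in Standard. Between the ribosomal protein share and the median UMIs of the same clusters rho was 0.53 in FLASH and 0.59 in Standard. With the low-depth clusters added this second rho was 0.086 and 0.125. The clusters of a library share its preparation, and the ribosomal protein and nuclear RNA shares have the same denominator, so these are descriptions. An unnamed cluster led by Gm26917, Miat and Kcnq1ot1 had 7.21% in FLASH and 6.08% in Standard, with nuclear RNA shares of 4.19% and 4.31%. Low-depth clusters, with median depths of 1443 UMIs in FLASH and 1475.5 in Standard, had 20.9% and 20.7% ribosomal protein UMIs and nuclear RNA shares of 0.307% and 0.335%. Among them, the cluster led by Tubb3, Gng3 and Rab3a scored highest for differentiating granule neuron markers. Its ribosomal protein share was 18.8% in FLASH (282 cells) and 19.1% in Standard (315 cells). Differentiating granule neuron-like cells of the tumour lineage had only 12.17% and 12%.

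Progenitor-like cells together with their S phase-like and G2 and M phase-like cells were the base for the comparison of differentiation. Differentiating cells had 12.17% in FLASH against 18.60% in progenitor-like cells, a log2 ratio of -0.612 (-0.615 to -0.608). In Standard they had 12% against 18.86%, a log2 ratio of -0.652 (-0.655 to -0.649). With mitochondrial and nuclear RNA left out of the denominator the log2 ratios were -0.59 in FLASH and -0.63 in Standard. With cells thinned to 2000 UMIs they were -0.67 and -0.71. Thinning left out 138 differentiating cells in FLASH and 132 in Standard, and 68 and 55 progenitor-like cells. It does not change the expected share of a single cell. Without the clusters led by nuclear RNAs the log2 ratios were -0.55 and -0.57, smaller than with all clusters. In each of these settings differentiating cells had the lower share.

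A gene was compared where it had 100 or more UMIs in the 2 libraries together and 50 or more CPM in 1 group. All 81 members that passed were lower in differentiating cells in both libraries, while 45% of the 4087 genes tested were. At least 1.5 times lower in both libraries were 45 of the 81, against 18.2% of the genes tested. The median member had a log2 ratio of -0.59 in FLASH and -0.62 in Standard, against 0.05 and 0.06 for the median gene. The members not counted were Rpl3l, Rpl10l, Rpl39l and Rps27rt, which were too low.

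**Figure D2:**
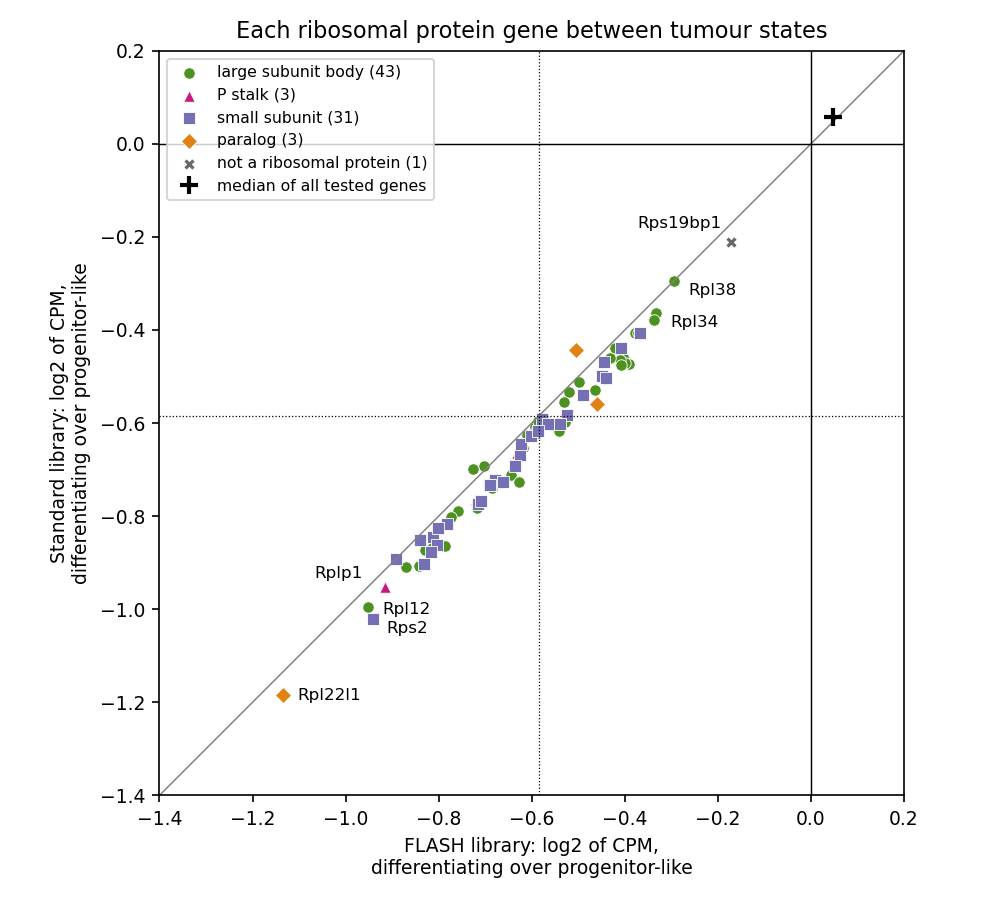
Log2 ratio of CPM in differentiating over progenitor-like tumour cells for each of the 81 members, in FLASH (x axis) and in Standard (y axis). Symbols mark the group of the gene, dotted lines a fold of 1.5, the grey line equal values and the plus sign the median of all tested genes; all members lie below 0 in both libraries, with Rpl22l1 lowest at -1.13 and -1.18.

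Large subunit body genes had a median log2 ratio of -0.57 in FLASH and -0.60 in Standard. At least 1.5 times lower were 21 of 43, against 18.2% of all genes tested. Rpl13, which had more UMIs than any other member, had 3212 CPM in FLASH and 2974 CPM in Standard in differentiating cells, against 5162 and 4966 CPM in progenitor-like cells. Rpl12, which sits at the base of the P stalk, had 764 CPM in FLASH and 644 CPM in Standard in differentiating cells, against 1477 and 1283 CPM. Rpl38 had the smallest difference of the canonical members, with 1214 CPM in FLASH and 1402 CPM in Standard in differentiating cells, against 1487 and 1719 CPM, a log2 ratio of -0.29 in both libraries. The large subunit genes were thus all lower in differentiating cells, by differing amounts.

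The 3 P stalk genes were each at least 1.5 times lower, against 18.2% of all genes tested. Their median log2 ratio was -0.72 in FLASH and -0.76 in Standard. Rplp0, the stalk's anchor, had 2756 CPM in FLASH and 2692 CPM in Standard in differentiating cells, against 4270 and 4269 CPM in progenitor-like cells. Rplp1 had 1425 CPM in FLASH and 1316 CPM in Standard, against 2689 and 2547 CPM. Rplp1 thus had the larger difference of these 2 stalk proteins.

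Small subunit genes had a median log2 ratio of -0.64 in FLASH and -0.69 in Standard. At least 1.5 times lower were 20 of 31, against 18.2% of all genes tested. Rps2 had the lowest ratio, with 1057 CPM in FLASH and 1039 CPM in Standard in differentiating cells, against 2030 and 2107 CPM in progenitor-like cells. Rps19, a gene known for its mutation in human Diamond-Blackfan anaemia, had 1922 CPM in FLASH and 1906 CPM in Standard, against 3422 and 3565 CPM. Rps24 had 3072 CPM in FLASH and 2926 CPM in Standard, against 4170 and 4150 CPM, a smaller difference than that of Rps2 in both libraries.

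Single members kept close to one another: none was 1.5 times away from the median member in both libraries, while 40.4% of genes were that far from the median gene. At a distance of 25% there were 5, against 61.5% of genes. They were Rpl22l1, Rpl12, Rps2 and Rplp1 on the lower side and Rps19bp1, the gene that is not a ribosomal protein, on the higher side. Rpl22l1, the paralog of the RNA-binding ribosomal protein Rpl22, was the farthest. It had 323 CPM in FLASH and 321 CPM in Standard in differentiating cells, against 709 and 729 CPM in progenitor-like cells. Rpl22 itself had 817 CPM in FLASH and 859 CPM in Standard, against 1382 and 1484 CPM. The log2 ratio was -1.13 in FLASH and -1.18 in Standard for Rpl22l1 and -0.76 and -0.79 for Rpl22, so the paralog had the larger difference in both libraries.

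The other paralogs lay nearer the median member. Rpl7l1, related to Rpl7, had 83.9 CPM in FLASH and 88.4 CPM in Standard in differentiating cells, against 119 and 120 CPM in progenitor-like cells. Rpl36al, related to Rpl36a, had 162 CPM in FLASH and 191 CPM in Standard, against 223 and 281 CPM. Rps19bp1 had 61.7 CPM in FLASH and 62.5 CPM in Standard, against 69.6 and 72.5 CPM, the smallest difference of all 81.

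Set against non-cycling progenitor-like cells, 80 of 81 members were lower in S phase-like cells in both libraries, against 40.4% of genes, and none was 1.5 times lower, against 2.71% of genes. The median member had a log2 ratio of -0.34 in FLASH and -0.34 in Standard. In G2 and M phase-like cells 78 of 81 were lower, against 40.7% of genes, and again none by 1.5 times, against 4.28%. The median member there had a log2 ratio of -0.33 in both libraries. Rpl22l1 had 738 CPM in both libraries in G2 and M phase-like cells, against 727 CPM in FLASH and 770 CPM in Standard in non-cycling progenitor-like cells. Rpl22l1 was thus about level between these 2 states, while Rpl22 had log2 ratios of -0.42 in FLASH and -0.41 in Standard.

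Other genes of the translation machinery were described beside the members with lists chosen with earlier results of these data known. Of 21 translation factors and related genes with TOP mRNAs, 19 were lower in differentiating cells in both libraries, against 45% of all genes tested, and 6 by at least 1.5 times, against 18.2%, with a median log2 ratio of -0.35 in FLASH and -0.33 in Standard. Rack1, a scaffold on the small subunit, and Tpt1 had the highest ratios between the libraries in tumour-lineage cells. Rack1 had 1416 CPM in FLASH and 1241 CPM in Standard, and Tpt1 had 4135 CPM in FLASH and 3633 CPM in Standard, a log2 ratio of 0.19 for each. Pabpc1, the poly(A) binding protein, had 482 CPM in FLASH and 502 CPM in Standard, and Eif3h had 391 CPM in FLASH and 397 CPM in Standard, the lowest ratios of this list.

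Ribosome biogenesis genes had lower ratios than the members themselves. Of 24 with enough counts among 40 listed, 22 were lower in differentiating cells in both libraries, against 45% of all genes tested, and 18 by at least 1.5 times, against 18.2%, with a median log2 ratio of -0.97 in FLASH and -0.92 in Standard. Nop56, a core protein of the particles that methylate ribosomal RNA, was named after its values were seen. It had 98.0 CPM in FLASH and 99.1 CPM in Standard in differentiating cells, against 292 and 283 CPM in progenitor-like cells. Between the libraries Lyar (137 CPM in FLASH, 127 CPM in Standard) and Noc2l (74.4 CPM in FLASH, 69.5 CPM in Standard) had the highest ratios. Ddx21 (162 CPM in FLASH, 172 CPM in Standard) and Nop16 (56.9 CPM in FLASH, 60.4 CPM in Standard) had the lowest.

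Mitochondrial ribosomal proteins, which build the separate ribosome of mitochondria, had smaller differences. Of 61 with enough counts among 78 listed, 54 were lower in differentiating cells in both libraries, against 45% of all genes tested, with a median log2 ratio of -0.26 in FLASH and -0.34 in Standard. At least 1.5 times lower were 12, a share near the 18.2% of all genes tested. Between the libraries Mrpl52 and Mrps21 had the lowest log2 ratios, -0.15 and -0.14, and Mrpl2 and Mrpl14 the highest, 0.12 each. Rps27l, a relative of Rps27 known as a p53 target in human cells, had 268 CPM in FLASH and 260 CPM in Standard in differentiating cells, against 487 and 508 CPM.

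Of 18 genes of mTORC1 and TOP mRNA control, 10 had enough counts, and their median log2 ratio was -0.14 in FLASH and -0.19 in Standard. Eif4ebp1, a translation repressor that mTORC1 phosphorylates, was the only one at least 1.5 times lower, against 18.2% of all genes tested. It had 7.25 CPM in FLASH and 5.40 CPM in Standard in differentiating cells, against 121 and 90.9 CPM in progenitor-like cells. In all tumour-lineage cells it had 90.6 CPM in FLASH and 65.2 CPM in Standard, a log2 ratio of 0.48 and the highest of this list, followed by the kinase gene Rps6kb1 at 0.11. Larp1 and Larp4 had the lowest, -0.02 and -0.01.

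Rpl5 and Rpl11 form with the 5S RNA the particle that can hold the p53 inhibitor Mdm2. Rpl5 had 606 CPM in FLASH and 529 CPM in Standard in differentiating cells, against 915 and 807 CPM in progenitor-like cells. Rpl11 had 1711 CPM in FLASH and 1544 CPM in Standard, against 2258 and 2140 CPM. Mdm2 had 63.3 CPM in FLASH and 60.7 CPM in Standard, against 46.6 and 49.0 CPM. Mdm2 was thus higher in differentiating cells, by less than 1.5 times, and both ribosomal proteins were lower, as were all 81 members. The log2 ratios in FLASH and Standard were -0.59 and -0.61 for Rpl5 and -0.40 and -0.47 for Rpl11. Neither was lower by more than the median member (-0.59 and -0.62). Among the other genes listed for this path, Trp53 (-0.94 and -1.02), Rrs1 (-1.12 and -1.13) and Rpf2 (-0.32 and -0.39) were lower. Mdm4 was higher (0.24 and 0.19).

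Outside the tumour lineage the share spanned a wider range. T cell-like cells had 26.9% in FLASH (26 cells) and 26.1% in Standard (19 cells), the highest of all classes. Macrophage-like cells had 16.5% in FLASH (204 cells) and 16.6% in Standard (162 cells), and microglia-like cells had 13.9% in FLASH (114 cells) and 13% in Standard (139 cells). Oligodendrocyte lineage-like cells had 10.1% in FLASH (158 cells) and 9.65% in Standard (117 cells), with nuclear RNA shares of 4.16% and 4.30%. Endothelial cell-like cells had 10.6% in FLASH (48 cells) and 10.5% in Standard (31 cells), close to the oligodendrocyte lineage. Erythroid-like cells had the widest ratio between the libraries, 11.9% in FLASH (35 cells) and 9.37% in Standard (28 cells). Neutrophil-like cells had 7.42% in FLASH (24 cells) and 7.20% in Standard (15 cells), and astrocyte-like cells had 7.19% in FLASH (16 cells) and 7.44% in Standard (6 cells). Pericyte and fibroblast-like cells had 12.4% in FLASH (7 cells) and 13.3% in Standard (5 cells).

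Single members stood apart from the median member by cell class. Members at least 1.5 times from the median member in both libraries, with tumour-lineage cells as base, numbered 4 of 81 in macrophage-like cells, against 60.4% of genes that far from the median gene. On the higher side were Rps29, a short zinc-binding protein of the small subunit, and Rplp1. Rps29 had 5242 CPM in FLASH and 6318 CPM in Standard in macrophage-like cells, against 3451 and 3920 CPM in tumour-lineage cells. Rplp1 had 3516 CPM in FLASH and 3423 CPM in Standard, against 2400 and 2227 CPM. On the lower side were Rpl13a, known for a role in translational silencing in activated human monocytes, and Rpl22l1. Rpl13a had 120 CPM in FLASH and 112 CPM in Standard, from 194 and 148 UMIs, against 228 and 209 CPM. Rpl22l1 had 378 CPM in FLASH and 342 CPM in Standard, against 615 and 618 CPM. The 5 macrophage-like cells with most Rps29 UMIs held 8.53% of them in FLASH and 6.85% in Standard.

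In microglia-like cells 3 of 81 members stood apart, against 57.7% of genes. Rps29 was again on the higher side, with 4491 CPM in FLASH and 5032 CPM in Standard. Rpl13a had 120 CPM in FLASH and 87.9 CPM in Standard, from 79 and 66 UMIs. Rps26 had 1564 CPM in FLASH and 1591 CPM in Standard in microglia-like cells, against 3039 and 3253 CPM in tumour-lineage cells. Rps29 lay above the median member and Rpl13a and Rps26 below it. That each kept its side in both libraries was required by the rule that picked them. In oligodendrocyte lineage-like cells the only one, against 49% of genes, was Rps19bp1. It had 63.4 CPM in FLASH and 81.4 CPM in Standard, against 67.4 and 69.0 CPM, from 62 and 67 UMIs.

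**Figure D3:**
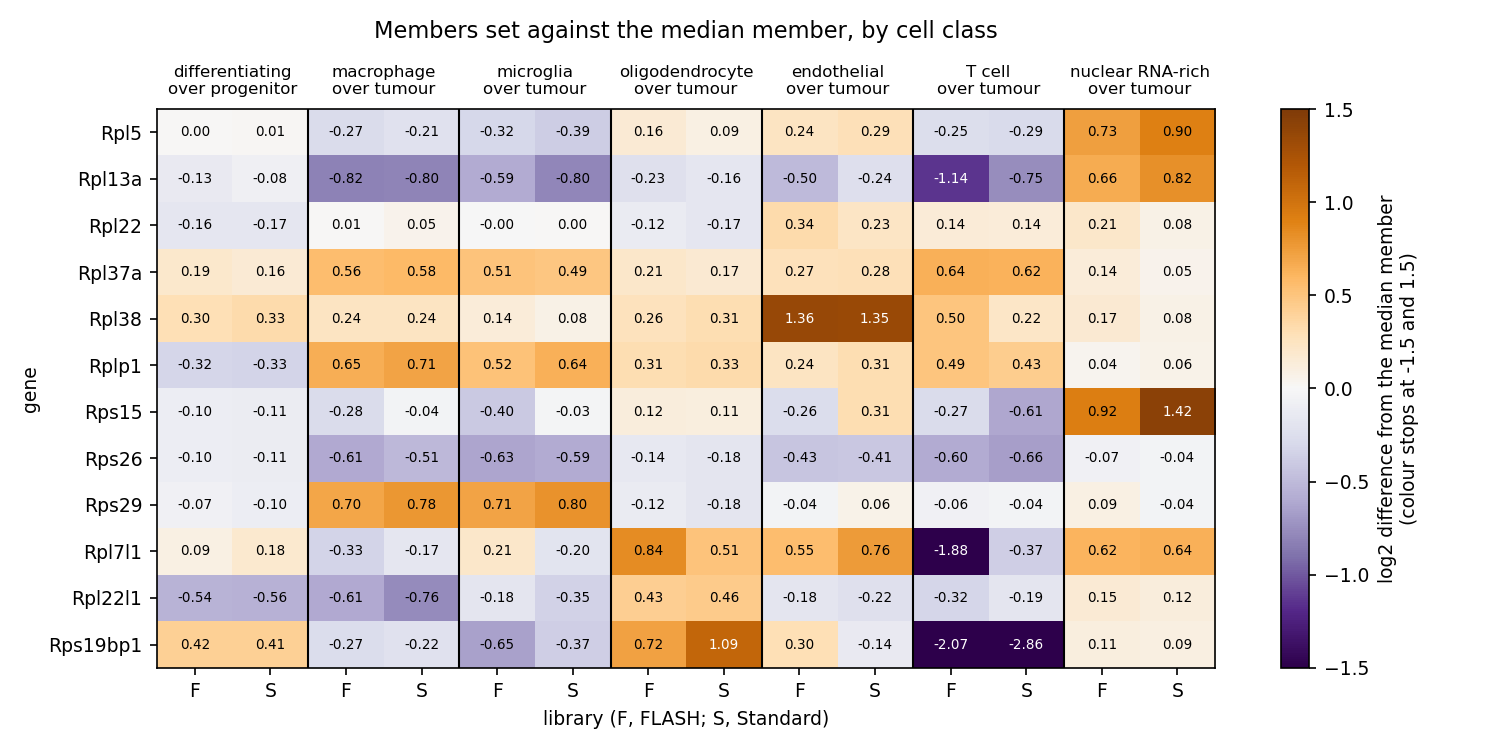
Log2 difference of 12 genes from the median member in 7 comparisons, in FLASH (F) and Standard (S); orange is above and purple below the median member. Rpl38 in endothelial cell-like cells (1.36 and 1.35), Rps29 in macrophage- and microglia-like cells (0.70 to 0.80) and Rps15 in the nuclear RNA-rich cluster (0.92 and 1.42) stand above it.

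The classes that follow have fewer cells, or no name, and their members were named after the values were seen. In endothelial cell-like cells Rpl38 was the only one of 81, against 48.8% of genes. It had 2221 CPM in FLASH and 2529 CPM in Standard, against 1431 and 1636 CPM in tumour-lineage cells, from 374 and 365 UMIs. It was higher than in tumour-lineage cells in both libraries. The median member had log2 ratios of -0.72 in FLASH and -0.72 in Standard, against -0.16 and -0.08 for the median gene. Without the 5 cells with most Rpl38 UMIs the level was 1990 CPM in FLASH and 2038 CPM in Standard, still above tumour-lineage cells. Rpl38 is known from mice in which its loss alters the pattern of the axial skeleton.

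In T cell-like cells 5 of 82 stood apart, against 42.8% of genes. Rpl37a, with 4458 CPM in FLASH and 5100 CPM in Standard, and Rps27rt were on the higher side. Rps27rt, which passed the minimum of 50 CPM only through the T cell-like cells, rests there on 13 UMIs in FLASH and 10 in Standard, and no difference is read from it. Rpl13a, Rps26 and Rps19bp1 were on the lower side, the last with 3 UMIs in FLASH and 1 in Standard. In the nuclear RNA-rich unnamed cluster (279 cells in FLASH, 411 in Standard) there were 4 of 81, against 54% of genes. Rps15 had 751 CPM in FLASH and 759 CPM in Standard there, against 958 and 821 CPM in all tumour-lineage cells, and Rpl5 had 584 CPM in FLASH and 479 CPM in Standard, against 848 and 741 CPM. Rpl13a and Rpl7l1 were the others, and each of the 4 was less far below tumour-lineage cells than the median member was.

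The rare paralogs were counted cell by cell. Rpl3l, a muscle form of Rpl3, had 9 UMIs in all, each of them in macrophage-like cells: 6 UMIs in 6 of 204 cells in FLASH and 3 UMIs in 3 of 162 cells in Standard. Tumour-lineage cells had none, in 7327 cells in FLASH and 5962 cells in Standard, at median depths of 5770 and 6358 UMIs against 6986 and 7458 UMIs in macrophage-like cells. Rpl39l, known from the testis, had 6 UMIs, of which 4 were in 1 T cell-like cell in Standard. Rpl10l, also a testis form, had no UMI in either library. Rps27rt had 1740 UMIs in FLASH and 2001 UMIs in Standard and was found in nearly every class. At such counts no level is compared for Rpl3l and Rpl39l.

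Single members took unequal parts of the ribosomal protein UMIs. Capture at the end of the mRNA gives about 1 UMI per molecule whatever its length, and its efficiency differs between genes, so these shares do not rank the genes' mRNA levels. Rpl13 had 2.76% of the members' UMIs in FLASH and 2.60% in Standard, and Rps24 had 2.30% and 2.26%. Rplp0 had 2.26% in FLASH and 2.21% in Standard, and Rps27a had 2.24% and 2.14%. At the other end of the canonical members, Rpl13a had 0.130% in FLASH and 0.119% in Standard, and Rpl27 had 0.201% and 0.255%. Rpl31 had 0.396% in FLASH and 0.388% in Standard, Rpl5 had 0.491% and 0.433%, and Rpl23a had 0.518% and 0.466%. Of the genes given here, Rpl27 alone had the higher share in Standard, but these genes are a selection. Of all 81 members with enough counts, 29 had fewer CPM in FLASH than in Standard in tumour-lineage cells, against 44.1% of all genes tested.

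Between FLASH and Standard none of the 81 members differed by 1.5 times in tumour-lineage cells. Only 0.0877% of the 3419 genes tested did, so finding none does not set the members apart. Rpl27 was the 1 member lower in FLASH by so much that Standard exceeded it by at least 25%, against 0.439% of genes. Past 1.1 times there were 8 members higher, against 3.74% of genes, and 13 lower, against 4.56%. Members thus passed this smaller limit more often than genes did, in both directions. The median member had a log2 ratio of 0.03 and the median gene one of 0.01. The levels of the 77 canonical members kept their order between the libraries, with a Spearman's rho of 0.98 over genes that share their cells and library.

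The lowest was Rpl27, with 341 CPM in FLASH and 432 CPM in Standard, a log2 ratio of -0.34 (-0.37 to -0.31). Rpl36al had 209 CPM in FLASH and 257 CPM in Standard, and Rps28 had 2354 CPM in FLASH and 2827 CPM in Standard, log2 ratios of -0.30 and -0.26. Rpl37, Rpl37a, Rps27, Rpl39 and Rpl38 followed with log2 ratios of -0.24, -0.23, -0.22, -0.22 and -0.19. Except Rpl27, with 408 nt, each of these 8 genes has a coding length of at most 360 nt. Rps27rt, under the minimum of 50 CPM, had 29.5 CPM in FLASH and 40.1 CPM in Standard.

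The highest was Rpl10, with 996 CPM in FLASH and 842 CPM in Standard, a log2 ratio of 0.24 (0.22 to 0.26). Rpl12 had 1326 CPM in FLASH and 1126 CPM in Standard, and Rps15 had 958 CPM in FLASH and 821 CPM in Standard, log2 ratios of 0.24 and 0.22. Rpl5, Rps14, Rpl23a, Rpl17 and Rps12 followed with 0.19, 0.18, 0.16, 0.16 and 0.14. Rps14 is known for its loss in a form of human myelodysplastic syndrome, and Rpl5 for its part in the 5S particle.

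The ratio went with the coding length of the gene. The 18 canonical members with a coding length of at most 360 nt, a limit chosen after the values were seen, had a median log2 ratio of -0.17, and 15 of them were below 0, against 44.1% of all genes tested. The other 59 had a median of 0.06, and 10 of them were below 0. Spearman's rho between coding length and log2 ratio was 0.54 over the 77 genes, which share the same 2 libraries. In the shortest band, up to 240 nt, all 5 members were below 0, with Rpl41, at 75 nt the shortest, among them. From 480 to 720 nt none of 18 was below 0, against 36.3% of 493 other genes of these lengths. From 720 to 1200 nt 3 of 12 were below 0, against 42.3% of 718 other genes, and their median of 0.05 was lower than the 0.09 of the band from 480 to 720 nt, so the ratio did not go up with length throughout.

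**Figure D4:**
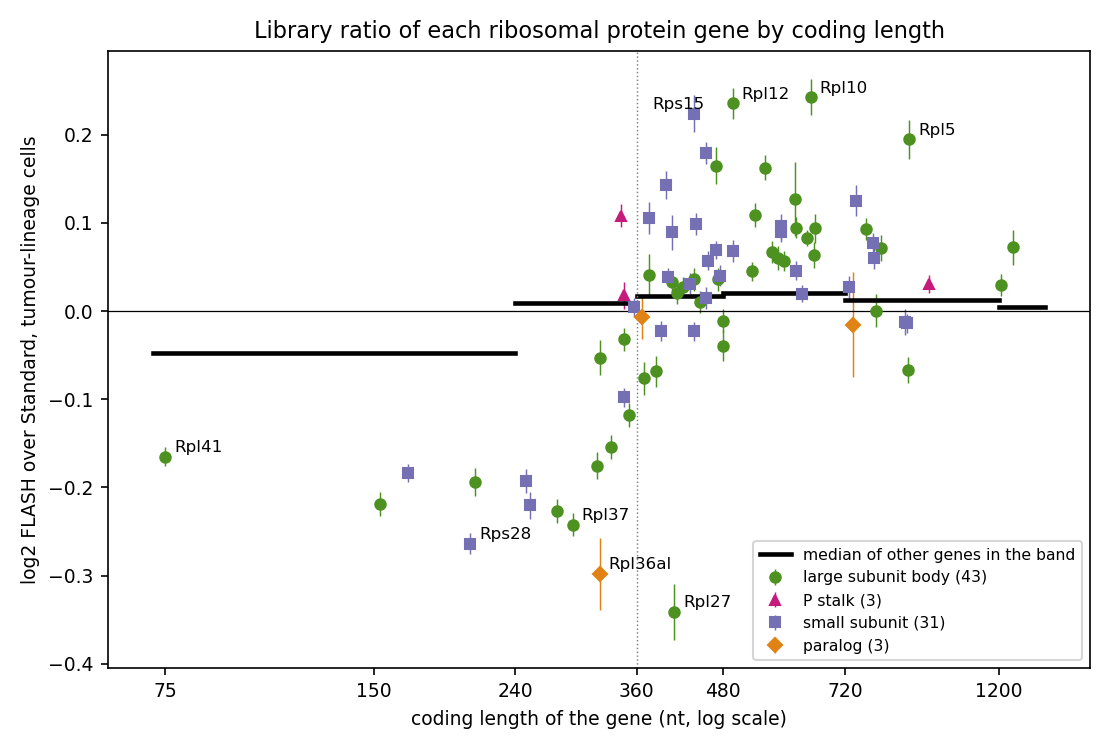
Log2 ratio of FLASH over Standard in tumour-lineage cells (y axis) against coding length in nt (x axis, log scale) for each member with enough counts. Bars are 95% counting intervals, the dotted line marks 360 nt and black lines are the medians of other genes in the same length band; most members left of the dotted line lie below 0, and Rpl27 lies lowest at -0.34.

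The same pattern was seen in each class examined. The 18 short members had a median log2 ratio of -0.14 in differentiating cells, -0.19 in non-cycling progenitor-like cells, -0.19 in macrophage-like cells and -0.10 in microglia-like cells. The 59 longer members had medians of 0.07, 0.04, 0.04 and 0.19 in the same classes. Over 10 classes, some of which contain others, rho ran from 0.36 in oligodendrocyte lineage-like cells to 0.71 in microglia-like cells. Short genes that are not members went partly the same way. Of 70 with at most 240 nt, 70.0% were below 0, with a median log2 ratio of -0.05, and in the longer bands the medians lay between 0.005 and 0.020. Each class of FLASH comes from the same library and so does each class of Standard, so these classes do not repeat the comparison. The part that library preparation or sequencing had in this pattern was not tested. The 8 immediate early genes with enough counts, which many stimuli induce, cell dissociation among them, were each lower in FLASH, against 44.1% of all genes tested, with a median log2 ratio of -0.19, and Junb and Fosb lowest at -0.36 and -0.27. Their relation to the members' ratios was not tested.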

How the data were processed

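The deposited matrices held raw UMI counts per gene and barcode, which the authors obtained from Cell Ranger (version 6.1.2, per the file headers) on mm10, per the submitters' processing notes. No source used here names the annotation release. Members, gene lists and comparisons were chosen with earlier results of these data known. Scrublet's automatic cutoff marked 0 barcodes in both libraries and so had not worked; the highest scores were removed at 0.8% per 1000 cells. Counts were scaled to 10000 per cell, and 2000 variable genes (sex-linked, mitochondrial and ribosomal protein genes left out), 30 principal components and 15 neighbours gave Leiden clusters at resolution 1.0 (scanpy 1.11.5, leidenalg 0.10.2, igraph 0.11.9). The cutoffs for naming clusters from markers were set after seeing the data.

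UMIs were summed per library and class. Log2 ratios used 0.5 added to each count. Intervals are exact (Clopper-Pearson for shares, conditional binomial for ratios). A gene needed 100 UMIs over both groups and 50 CPM in 1. No test was made, since each group is 1 library. Named were the 8 highest and 8 lowest members between the libraries, up to 5 members each way that were 1.5 times from the median member in both libraries in each class of 50 cells, all paralogs, the 5 members with most and the 5 canonical ones with fewest UMIs, and 2 highest and 2 lowest genes of the other lists. Of the genes this rule names, some are not reported here. Others were chosen after their values were seen. Coding lengths are from GENCODE M21, matched by gene ID for all 85 members. The computation was tested on simulated data.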

Additional observations from a re-analysis of the deposited data

Results flagged for a closer look

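Barcodes left out of every comparison held fewer ribosomal protein gene UMIs than those kept. Those with fewer than 500 genes had 8.83% in FLASH and 8.90% in Standard, and those with more than 10% mitochondrial UMIs had 7.71% in FLASH and 6.88% in Standard. The 9 rows with "-ps" symbols held 3827 UMIs in FLASH and 3404 UMIs in Standard.

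The log2 ratio of FLASH over Standard of the total share had opposite signs in different classes. It was below 0 in non-cycling granule neuron progenitor-like (-0.014), S phase-like (-0.012), G2 and M phase-like (-0.018) and macrophage-like cells (-0.014). It was above 0 in differentiating granule neuron-like cells (0.021), low-depth clusters (0.0096), tumour-lineage clusters without a named state (0.075), oligodendrocyte lineage-like cells (0.061) and microglia-like cells (0.10). Single clusters of a class could differ in sign, so a class value need not hold for each of its clusters. Among clusters without a named state, the Cre-led one had -0.010, and those led by Gm26917 and Ren1 had 0.25 and 0.10. The S phase-like clusters led by histone genes and by Ung had -0.028 and 0.020. The oligodendrocyte lineage-like clusters led by Cnp and by Mal had 0.029 and -0.32. Progenitor-like and differentiating clusters also had both signs. The difference between these classes was not tested, since each library gives 1 value per class.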

How the results depend on the processing

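No paired analysis was possible because each group is 1 library. The log2 ratio of the total share in tumour-lineage cells, FLASH over Standard, was 0.0072. It was below 0 with at most 5% mitochondrial UMIs (-0.0199), with clusters weighted to the same mix (-0.0047) and without clusters led by nuclear RNAs (-0.0098). It was 0.0057 with a minimum of 1000 genes, 0.0092 with doublet-scored barcodes kept, 0.0396 with cells thinned to 2000 UMIs and 0.0333 as a median over cells. The cause was not tested. For differentiating over progenitor-like cells the log2 ratio of the share, -0.61 in FLASH and -0.65 in Standard, kept its sign under all 13 alternatives. The values, FLASH before Standard, were -0.601 and -0.640 with 1000 genes, -0.585 and -0.622 with at most 5% mitochondrial UMIs, and -0.480 and -0.521 with doublet-scored barcodes kept. They were -0.692 and -0.722 at clustering resolution 0.5, -0.456 and -0.466 at resolution 2.0, and -0.673 and -0.714 after thinning. They were -0.592 and -0.629 without mitochondrial and nuclear RNA, -0.621 and -0.642 at the same mix, -0.550 and -0.575 without nuclear RNA-led clusters, and -0.734 and -0.791 as medians over cells. With a limit of 25% in place of a fold of 1.5 the members apart between the libraries numbered 1 and those apart from the median member between states 5; both counts were 0 under the other alternatives run. Leaving out the barcodes found in both libraries was added after seeing the data and gave 0.0074, -0.610 and -0.652. Thinning left out 388 of 7327 tumour-lineage cells in FLASH and 381 of 5962 in Standard.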
